A study of Caenorhabditis elegans with 2 samples.

Results

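Chromosome V of Caenorhabditis elegans was divided by position into a left arm, a centre and a right arm. Candidate regions for binding by F52B5.7 tagged with green fluorescent protein (GFP) were counted in each. Of the 30000 candidate regions in the pooled list of both replicates, 5725 had their summit on V. The authors named this list as peaks and background together, so a candidate is not by itself a bound region. The chromosome is 20924180 bp long on the ce11 build. Summits below position 5231045 made up the left arm (1609 candidates). Those from there to 15693135 made up the centre (2625), and those at or above it the right arm (1491), so that the boundaries lie at 25% and 75% of the length. The rule used position alone and no measured value.

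ChIP-seq, the sequencing of immunoprecipitated chromatin, was done on whole young adults of strain OP606, genotype unc-119(tm4063) III; wgIs606. The integrated transgene makes F52B5.7 tagged C-terminally with GFP and FLAG, and chromatin sheared by sonication was immunoprecipitated with an antibody to GFP. Animals of both sexes were pooled 63 h after synchronisation as L1 larvae that had been starved after bleaching. The labels give 2 biological replicates of this single strain, which form 1 group, and the control experiment they name was not analysed here. Whole animals were used, so binding in many cells and strong binding in a few cells cannot be told apart.

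The autosomes of this nematode have no single centromere, and their arms and centres differ along the length. Arms recombine more often, hold more repeated sequence and more chromatin methylated on histone H3 lysine 9, and lie nearer to the nuclear edge, whereas centres hold more conserved and essential genes. Chromosome V is known for its tandem clusters of serpentine chemoreceptor genes, a very large group of predicted G protein-coupled receptors that act mainly in sensory neurons.

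A candidate was called kept when the optimal list of the authors held the same region, that is, a region that passed their comparison of lists by the irreproducible discovery rate. The 1032 kept regions were the 1032 strongest of the pooled list by the authors' signal value, which has no stated scale and is used here only for ranks and descriptions inside 1 list. In each replicate list, which also held 30000 candidates, the 1032 strongest regions were taken in the same way. Read depth is unknown from these lists. Each share is followed by its 95% exact (Clopper-Pearson) interval and each ratio by its 95% exact conditional interval, both of which reflect counting error alone. Regions on 1 chromosome are not replicates, so no test was run between the arms and the centre.

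The sequences under the strongest summits are shown because the kept regions of the centre and right arm were led by sites beside small RNA genes, and those of the left arm were not. Each window is 101 bases long, centred on the summit, read from the RefSeq sequence of ce11. For each stretch of the chromosome the strongest kept region comes first, then the strongest within 250 bp of a tRNA gene. Capitals mark bases inside an annotated tRNA or snoRNA gene. The strongest left-arm region lies in an untranslated region (UTR) and is not printed, so that the next strongest stands in its place.
upstream of cmd-1, left arm, chrV:1151403-1151503, plus strand: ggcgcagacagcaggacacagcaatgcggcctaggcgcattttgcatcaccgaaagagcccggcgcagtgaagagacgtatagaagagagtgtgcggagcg
pxn-1 intron beside ZK994.7, centre, chrV:8500520-8500620, plus strand: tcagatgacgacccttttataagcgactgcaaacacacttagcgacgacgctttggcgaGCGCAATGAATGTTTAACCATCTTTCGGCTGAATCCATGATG
beside T06C12.16 near str-56, right arm, chrV:15873925-15874025, plus strand: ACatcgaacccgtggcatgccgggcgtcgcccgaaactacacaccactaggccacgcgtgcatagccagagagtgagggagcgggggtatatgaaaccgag
ndx-2 intron at W02G9.t1, left arm, chrV:2664625-2664725, plus strand: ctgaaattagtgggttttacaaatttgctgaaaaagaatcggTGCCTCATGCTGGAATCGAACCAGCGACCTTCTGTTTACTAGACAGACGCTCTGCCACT
upstream of gcy-33 beside F57F5.t1, centre, chrV:12002114-12002214, plus strand: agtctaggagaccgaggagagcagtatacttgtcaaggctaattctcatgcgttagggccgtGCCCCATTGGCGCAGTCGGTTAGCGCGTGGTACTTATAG
upstream of srh-269 beside T03E6.t1, right arm, chrV:16592298-16592398, plus strand: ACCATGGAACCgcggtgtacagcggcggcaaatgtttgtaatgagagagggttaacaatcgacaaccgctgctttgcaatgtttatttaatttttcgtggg
The window upstream of cmd-1 held no base of a small RNA gene, that of pxn-1 held 42, that beside T06C12.16 held 2, and those at the tRNA genes held 59, 39 and 11. The letters GTTCGA, which belong to the B box inside tRNA genes, were searched on both strands and were found in the windows of W02G9.t1 and T06C12.16. In the window of T06C12.16 they lay outside the bases marked as the snoRNA gene. Of all 5725 windows of the same length on V, 4.75% held them. The printed windows were picked by strength, so they give no share to set beside this one.

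The arms held more candidates for their length than the centre, and fewer of them were kept. In the pooled list there were 308 candidates per Mb in the left arm (293 to 323), 251 in the centre (241 to 261) and 285 in the right arm (271 to 299.9). The kept regions numbered 26, 109 and 28, and over all 30000 candidates 3.44% were kept. Kept regions stood at 4.97 per Mb in the left arm (3.25 to 7.28), 10.4 in the centre (8.55 to 12.6) and 5.35 in the right arm (3.56 to 7.74). The share of candidates kept was 1.62% in the left arm (1.06 to 2.36), 4.15% in the centre (3.42 to 4.99) and 1.88% in the right arm (1.25 to 2.70). The left arm thus had 0.389 times the share of the centre (0.243 to 0.601), and the right arm 0.452 times (0.287 to 0.690). The whole chromosome was at 2.85% (2.43 to 3.31).

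Both replicate lists gave the same order of the centre over the arms. In replicate 1, the share among the strongest 1032 was 2.09% in the left arm, 3.54% in the centre and 1.96% in the right arm. In replicate 2 the shares were 1.53%, 3.61% and 1.76%. The ratio to the centre in replicate 1 was 0.591 for the left arm (0.389 to 0.878) and 0.553 for the right arm (0.346 to 0.856). In replicate 2 it was 0.423 (0.258 to 0.670) and 0.487 (0.304 to 0.755). The density of all candidates was less alike between replicates. Replicate 1 had 310.3, 286 and 254 candidates per Mb from left arm to right arm, and replicate 2 had 300.3, 241 and 294. The right arm was thus less dense than the centre in replicate 1 (0.887 times, 0.831 to 0.947) and denser in replicate 2 (1.22 times, 1.14 to 1.30).

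**Figure D1:**
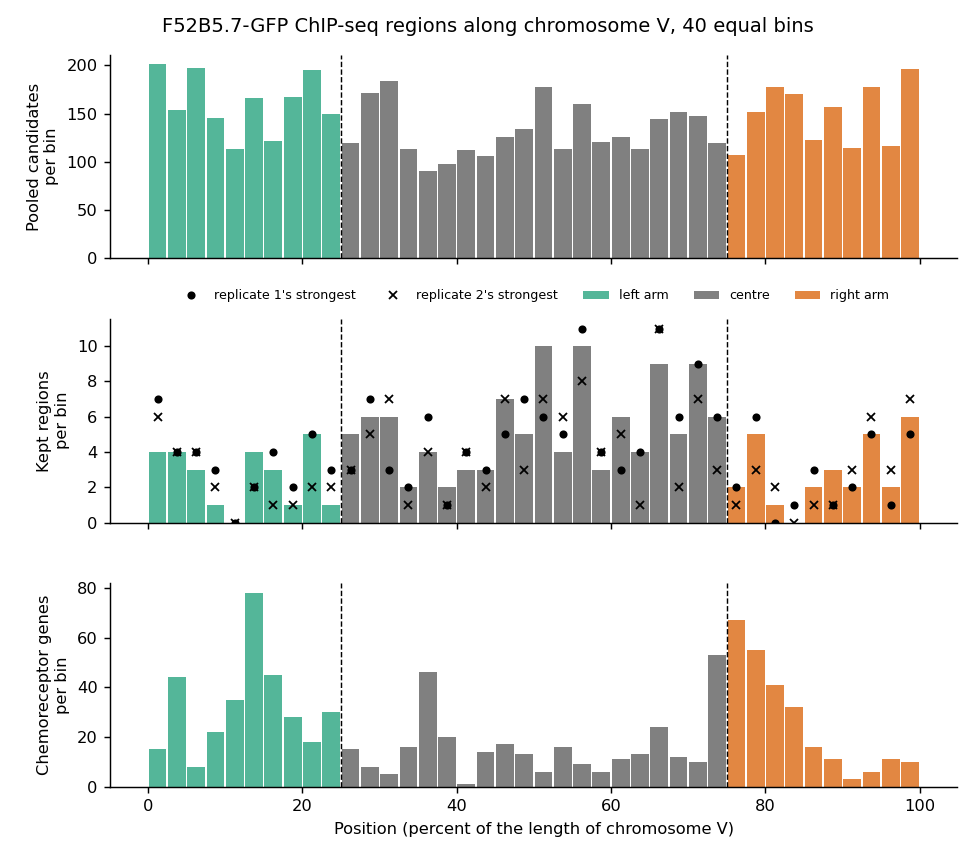
Chromosome V in 40 equal bins (x axis, percent of the chromosome's length; dashed lines at 25% and 75%), with the number of pooled candidates, of kept regions and of chemoreceptor genes per bin (y axes). In the middle panel, bars are pooled kept regions, dots and crosses the strongest 1032 of replicate 1 and replicate 2; bins of the centre hold 2 to 10 kept regions, and 1 bin in each arm holds 0.

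In bins of 0.523 Mb, the centre had a median of 5 kept regions per bin (lowest 2, highest 10, 20 bins). The left arm had a median of 3 (0 to 5, 10 bins) and the right arm a median of 2 (0 to 6, 10 bins). The bin from 10% to 12.5% of the length held 113 candidates, and none was kept in the pooled list or was among the strongest of either replicate. The bin from 82.5% to 85% held 170 candidates, with 0 kept, 1 among the strongest of replicate 1 and 0 in replicate 2. The bin at the right end of the chromosome held 6 kept regions.

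Long stretches of the arms held candidates but no kept region. The longest ran 1113 kb in the right arm, from the kept summit at gyg-2 to that at tcc-1 (chrV:16744926-17858086). It contained 366 candidates, the strongest with a signal of 112.4, and 252 protein-coding genes, 87 of them chemoreceptor genes. In the whole right arm, 252 of 1162 genes were chemoreceptor genes. In the left arm the longest ran 789 kb, from the summit in a UTR of zig-11 to that in ndx-2, with 217 candidates. Of its 191 genes 39 were chemoreceptor genes, against 323 of 1208 in the whole left arm. The longest stretch in the centre was 502 kb. Of the gaps between neighbouring kept summits, the median was 104 kb in the left arm (25 gaps), 63.4 kb in the centre (108 gaps) and 89.1 kb in the right arm (27 gaps). Gaps under 2 kb numbered 0, 11 and 1.

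The typical candidate was about as strong in the arms as in the centre, and the difference lay among the strong ones. Median signal was 45.0 in the left arm, 46.6 in the centre and 43.5 in the right arm, and the 90th percentiles were 76.3, 86.5 and 74.4. The median signal of the kept regions alone was 141 in the left arm, 141 in the centre and 149 in the right arm. The strongest region had a signal of 304 in the left arm, 777 in the centre and 315 in the right arm. Both arms together held 5.19% of the regions ranked 301 to 1032 in the pooled list (3.70 to 7.06), whereas the centre held 10.9% (8.76 to 13.4). Among ranks 20001 to 30000 the arms held 11.4% (10.8 to 12.02) and the centre 8.60% (8.06 to 9.17). Among the 100 strongest, 7 lay in the arms and 9 in the centre, counts whose intervals overlap.

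**Figure D2:**
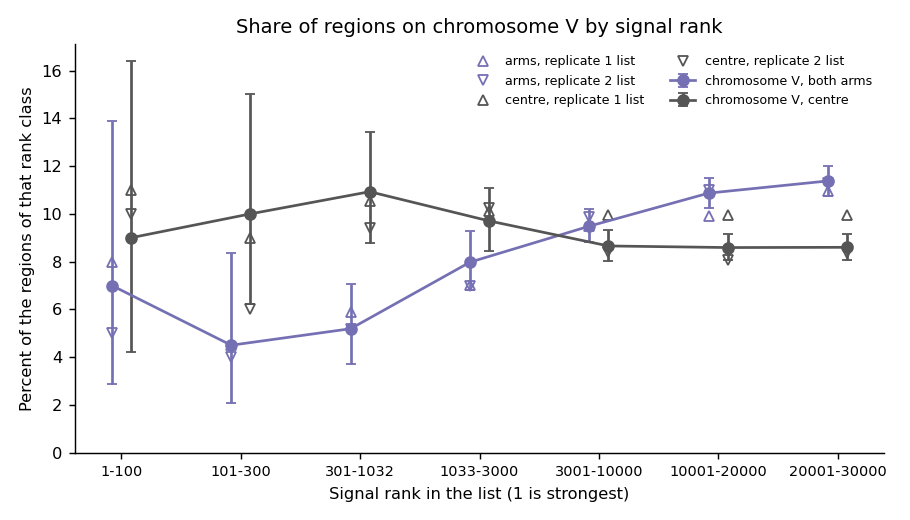
Percent of all regions of each signal rank class (x axis, 1 is strongest) that lay on chromosome V, in both arms (purple) or the centre (grey). Filled circles are the pooled list with 95% exact intervals, open triangles the 2 replicate lists; the pooled share of the arms goes from 5.19% at ranks 301 to 1032 to 11.4% at ranks 20001 to 30000.

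Just inside the optimal list, the weakest kept regions were at F37B4.10 in the left arm (signal 114.7), at par-1, a polarity kinase gene, in the centre (115.8), and at cpl-1, a cathepsin L protease gene, in the right arm (115.7). Just outside it were C36C5.14 in the left arm (112.8), pigt-1 in the centre (114.6) and srh-286 in the right arm (112.4). The chemoreceptor region at srh-286 ranked 421 in replicate 1, with a signal of 84.4, and 14898 in replicate 2, with 26.1. At the left boundary the last candidate of the arm lay in cest-32 (58.8) and the nearest of the centre beside cest-35.2 (41.7). At the right boundary the last candidate of the centre lay in nhr-51 (70.5) and the nearest of the arm in nhr-199 (42.0). None of these 4 was kept.

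The same division was applied to the other chromosomes, with arms and centre cut at the same percentages of the length. The ratio of the share kept, arms to centre, was 0.420 on V (0.297 to 0.586). It was 0.691 on I (0.507 to 0.938), 0.779 on II (0.569 to 1.07), 0.845 on III (0.629 to 1.13), 0.879 on IV (0.642 to 1.20) and 0.799 on X (0.578 to 1.10). The centres of the other chromosomes kept between 3.66% and 4.14% of their candidates, close to the 4.15% of the centre of V. The ratio on V was 0.574 in replicate 1 (0.411 to 0.795) and 0.455 in replicate 2 (0.316 to 0.647). In replicate 2 that of X was also low, at 0.567 (0.405 to 0.788). Arm by arm, the pooled ratio outside V ran from 0.510 in the left arm of II (0.298 to 0.833) to 1.22 in the right arm of IV (0.782 to 1.85). The left arm of II was thus close to the arms of V, and its interval overlaps both of theirs. It had 0.430 times the kept regions per Mb of its centre (0.251 to 0.703), below the 0.477 and 0.514 of V. Its share ratio was 0.481 in replicate 2 (0.281 to 0.785) and 0.654 in replicate 1, with an interval that includes 1 (0.407 to 1.02). Differences between chromosomes were not tested.

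**Figure D3:**
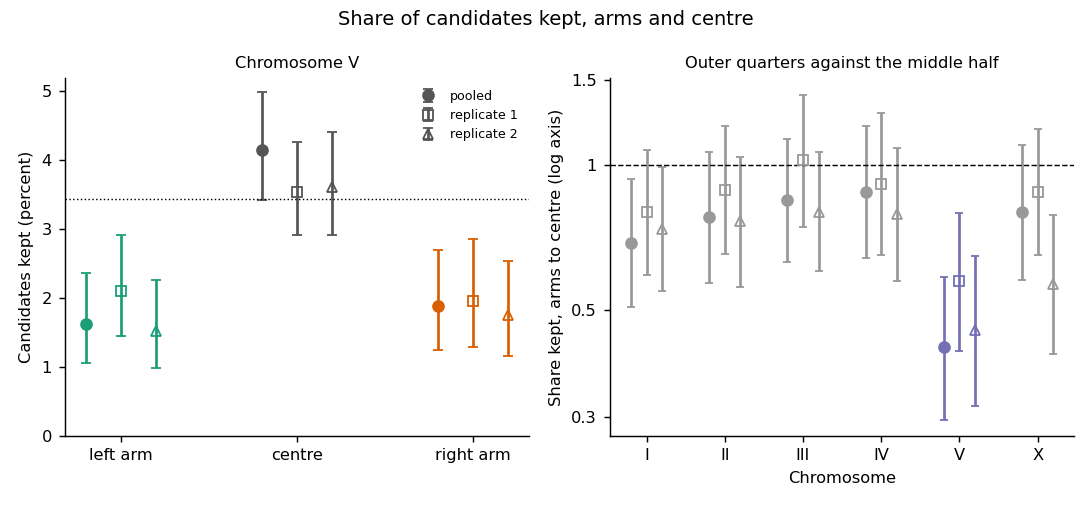
Left, percent of candidates kept (y axis) in the left arm, centre and right arm of chromosome V; right, the share kept in the arms divided by that in the centre (y axis, log scale) for each chromosome. Circles are the pooled list, squares replicate 1 and triangles replicate 2, bars are 95% exact intervals, the dotted line is 3.44% and the dashed line equal shares; on V the pooled ratio is 0.420.

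Candidates were also divided by the place of the summit in the gene models, a split that was chosen after the values were seen. The ratios of these classes were not tested against each other, and their intervals overlap. Of candidates in coding sequence, 1.54% were kept in the arms (19 of 1233, interval 0.930 to 2.40) and 1.73% in the centre (22 of 1270, interval 1.09 to 2.61), a ratio of 0.890 (0.455 to 1.72). In introns, 1.25% were kept in the arms (11 of 877) and 4.87% in the centre (26 of 534), a ratio of 0.258 (0.115 to 0.540). Outside protein-coding genes the shares were 2.14% (19 of 889) and 7.58% (50 of 660), a ratio of 0.282 (0.157 to 0.487). UTRs held 5 kept of 101 in the arms and 11 of 161 in the centre, too few to separate.

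The replicate lists gave the same picture for introns and for sequence outside genes. The intron ratio was 0.462 in replicate 1 (0.220 to 0.937) and 0.286 in replicate 2 (0.130 to 0.594), and outside genes it was 0.498 (0.292 to 0.831) and 0.380 (0.214 to 0.655). In coding sequence the ratio was 0.724 (0.372 to 1.37) and 0.595 (0.256 to 1.32), so a difference was not detectable there with these counts. On the other autosomes together, the pooled ratio was 0.866 in coding sequence (0.632 to 1.18), 0.732 in introns (0.532 to 1.01) and 0.693 outside genes (0.549 to 0.872).

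**Figure D4:**
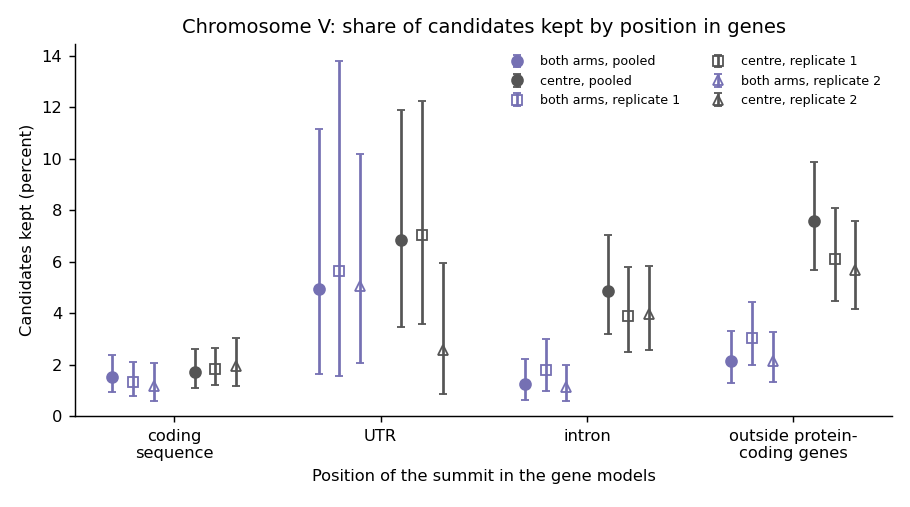
Percent of candidates kept on chromosome V (y axis) by the position of the summit in the gene models (x axis), for both arms (purple) and the centre (grey). Circles are the pooled list, squares replicate 1 and triangles replicate 2, with 95% exact intervals; arms and centre overlap in coding sequence, at 1.54% and 1.73%, and stand apart in introns, at 1.25% and 4.87%, and outside genes.

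The annotated makeup differed between the arms and the centre. Introns were 31.5% of the bases in the left arm, 25.7% in the centre and 32.2% in the right arm, and coding sequence was 24.7%, 29.8% and 22.5%. Per Mb of coding sequence, kept regions stood at 7.74, 7.05 and 7.66. Per Mb outside protein-coding genes they stood at 3.34 in the left arm (1.34 to 6.88), 12.3 in the centre (9.12 to 16.2) and 5.51 in the right arm (2.85 to 9.62).

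Genes for snoRNAs, which guide chemical modification of other RNAs, lay beside most of the 5 strongest kept regions in the centre and in the right arm. Genes for tRNAs, the adaptors of translation, lay beside fewer of them. Among kept regions, a gene for a tRNA, a snoRNA or a spliceosomal snRNA lay within 250 bp of the summit for 23 of 109 in the centre (21.1%, 13.9 to 29.96). The count was 6 of 28 in the right arm (21.4%, 8.30 to 41.0) and 1 of 26 in the left arm (3.85%, 0.0973 to 19.6). Over the whole list it was 246 of 1032, a share close to those of the centre and right arm. Candidates near such a gene were also fewest in the left arm, with 15 of 1609, against 81 of 2625 in the centre and 24 of 1491 in the right arm. Of all candidates near such a gene in the whole list, 33.7% were kept (246 of 731). Of the 5 strongest kept regions in the centre, 5 lay beside a snoRNA gene and 0 beside a tRNA gene. In the right arm 3 lay beside a snoRNA gene and 1 beside a tRNA gene, and in the left arm 0 lay beside any. A kept summit lay at 12 of 46 tRNA genes in the centre, 3 of 23 in the right arm and 1 of 9 in the left arm. For snoRNA genes the counts were 10 of 40, 3 of 8 and 0 of 7, and for snRNA genes 2 of 21, 0 of 13 and 0 of 6. Over all of V the counts were 16 of 78 tRNA genes, 13 of 55 snoRNA genes and 2 of 40 snRNA genes. Away from coding sequence and from these genes, the share kept was 1.53% in the arms (28 of 1831) and 4.98% in the centre (64 of 1286), a ratio of 0.307 (0.190 to 0.486).

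In the left arm the strongest region lay in a UTR of zig-11, an immunoglobulin-domain gene, with cct-7, a chaperonin subunit gene, as the nearest TSS (transcription start site). Its signal was 304 in the pooled list (rank 43), 139 in replicate 1 and 149 in replicate 2. The next lay at -4818 bp from the TSS of cmd-1, the calmodulin gene, where negative distances are upstream (chrV:1151258-1151647). It had a signal of 274, overlapped the lincRNA gene linc-128, and stood at 138 and 135 in the replicates. Both were thus among the 100 strongest of each replicate list. About 7 kb away, an intron of T21H3.5, annotated as a class H serpentine receptor, held a region of 225. It ranked 55 in replicate 1 and 574 in replicate 2, with signals of 154 and 76.2. Further left on the chromosome, 3 kept regions lay within 8 kb of one another (chrV:723830-731782). They were at fbxb-72, an F-box gene (215), at icl-1, whose product acts in the glyoxylate cycle (212), and at the chemoreceptor gene srh-2 (186). Others of the 10 strongest were at the chemoreceptor gene srt-52 (190.3), between adss-1, for a purine synthesis enzyme, and hsp-6, for a mitochondrial chaperone (180.5), in ndx-2 at the threonine tRNA gene W02G9.t1 (169), and at F41F3.3 (163).

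In the centre the strongest summit was within an intron of pxn-1, which makes a peroxidasin, 9 bp from the snoRNA gene ZK994.7 (chrV:8500406-8500715). Its signal was 777, second in the pooled list, with 448 in replicate 1 and 325 in replicate 2. The snoRNA genes T03F7.8, in an intron of cutl-18, and C51F7.4, in an intron of frm-7, came next, with signals of 629 and 596. In both replicates these 3 had a higher signal than every kept region of the arms. An intron of F55A11.6, close to the snoRNA F55A11.10, had 351, and the snoRNA gene Y75B12B.12, upstream of Y75B12B.11, had 323. A region between the chemoreceptor gene srw-71 and ddo-2, a D-aspartate oxidase gene, had 297 and overlapped the pseudogene F18E3.9. Below these, stdh-1, annotated as a steroid dehydrogenase, had 252, with 178 in replicate 1 and 92.9 in replicate 2. Signals of 250.1 at fubl-1, 249.97 at unc-41, which acts in synaptic vesicle recycling and holds the snoRNA gene C27H6.5, and 233 beside the actin gene act-2 completed the 10 strongest. W06H8.6, which makes a protein with a basic helix-loop-helix domain, held 4 kept summits with signals of 124 to 164. All 4 ranked in the top 319 of replicate 1. In replicate 2 they ranked 1529, 3633 and 4084 or had no candidate at the summit.

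In the right arm the strongest region lay beside the snoRNA gene T06C12.16, with str-56, a chemoreceptor gene, as the nearest TSS and nhr-102 as the nearest gene body. Its signal was 315, with 168 in replicate 1 and 158 in replicate 2. Y39B6A.43 had 314.9 and ranked 133 in replicate 1 and 19 in replicate 2, with signals of 122 and 191. The glutamine tRNA gene T03E6.t1, between srh-269 and cpl-1, had 310.1, with 178 and 143. Y43F8C.7, for a subunit of the endoplasmic reticulum membrane complex, had 267 beside the snoRNA gene Y43F8C.22. W08G11.3, beside the snoRNA gene W08G11.6, had 255, with 96.2 in replicate 2 and no candidate at its summit in replicate 1. Further down were Y59A8B.24 (209.9), pptr-1, a subunit gene of protein phosphatase 2A (201), and hif-1, the hypoxia-inducible factor gene (187 upstream, and 147 in an intron). Y43F8B.2 had 166, and mdt-17, a Mediator subunit gene, had 165. The region at mdt-17 ranked 1469 in replicate 1 and 273 in replicate 2, with signals of 59.5 and 96.2.

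Kept regions of the arms held up in the replicates about as often as those of the centre. Both replicates had the summit among their strongest 1032 regions for 11 of 26 kept regions in the left arm (42.3%, 23.4 to 63.1), 47 of 109 in the centre (43.1%, 33.7 to 53.0) and 12 of 28 in the right arm (42.9%, 24.5 to 62.8). All were chosen by pooled signal from the same 2 libraries, so part of this overlap is built in. In the left arm all 26 had a candidate at the summit in both replicates. In the right arm 3 had none at the summit in replicate 1, at W08G11.3, at Y69H2.10 and at the phenylalanine tRNA gene Y39B6A.t9 near bed-1. In the centre 2 had none at the summit in replicate 2, at W06H8.6 and at H37A05.4. Counting any overlap of the regions instead, 26 of 28 in the right arm had a candidate in replicate 1. By the same count 108 of 109 in the centre had one in replicate 2. Among the candidates not kept, both replicates had a candidate at the summit for 38.5% in the left arm (36.1 to 41.0), 41.4% in the centre (39.4 to 43.3) and 33.4% in the right arm (31.0 to 35.9).

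**Figure D5:**
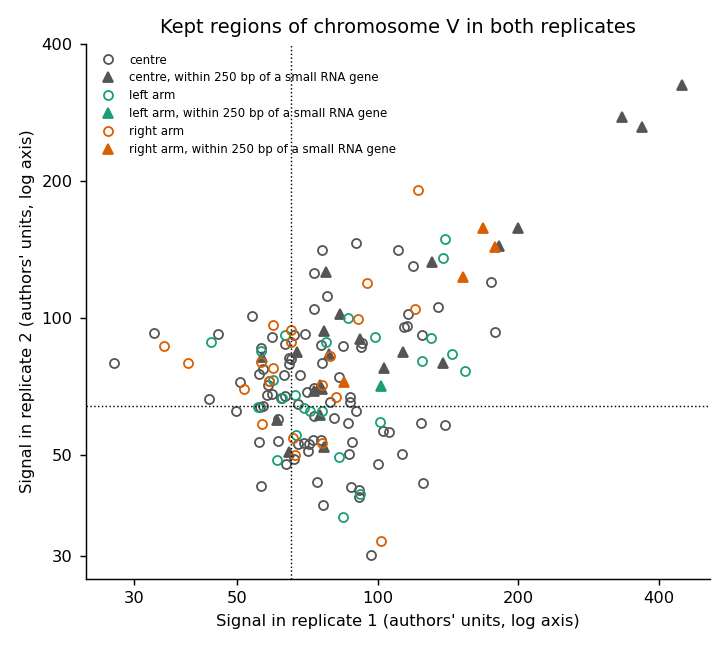
Signal of the kept regions of chromosome V in replicate 1 (x axis) and replicate 2 (y axis), both in the authors' units on log axes. Shown are the 158 with a candidate at the summit in both. Colours give the part of the chromosome, triangles mark regions with such a small RNA gene within 250 bp, and dotted lines the weakest of the strongest 1032 in each replicate; 70 regions lie above both lines, and 3 centre regions beside snoRNA genes lie beyond all others.

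Chemoreceptor genes were many in the arms, and few carried kept regions. By symbol, 890 of the 1309 in the genome lay on V, with 323 in the left arm, 315 in the centre and 252 in the right arm. A promoter window, from 1000 bp upstream to 500 bp downstream of a TSS, held a candidate for 18.9% of them in the left arm (14.8 to 23.6), 6.98% in the centre (4.43 to 10.4) and 25.4% in the right arm (20.1 to 31.2). For all other genes the shares were 44.0%, 32.9% and 35.6%. A kept summit fell in the promoter window of 2 chemoreceptor genes, srh-2 and srh-269, out of 890 (0.225%, 0.0272 to 0.809). Over all 19973 protein-coding genes 3.0% had one, and among the other genes of V 82 of 4104 did (2.00%, 1.59 to 2.47). The window of srh-269 held the tRNA gene T03E6.t1, 40 bp from the summit.

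The regions nearest to chemoreceptor genes were weaker than the rest, by a small margin. They numbered 429 on V (7.49% of candidates) and made up 9.51% of the candidates of the left arm, 3.24% in the centre and 12.8% in the right arm. Their median signal was 42.4, against 45.4 for regions nearest other genes. Of the 429, 9 were kept (2.10%, 0.964 to 3.94), against 154 of 5296 (2.91%, 2.47 to 3.40), intervals that overlap. The shares kept were 1.31% against 1.65% in the left arm and 1.57% against 1.92% in the right arm. In the centre the order was reversed, at 4.71% (4 of 85) against 4.13%. Over the whole list they were 1.62% (10 of 616, interval 0.781 to 2.97) against 3.48%. Besides str-56, srh-269, srw-71, srt-52 and srh-2, the 9 were nearest srw-85 (159), srsx-22 (141), str-206 (130.5) and srw-33 (124). The region nearest srsx-22 lay 2 bp from the snoRNA gene C08D8.3. Only srt-52 and srw-85 held the summit inside the gene body as an intron or coding sequence, and srh-2 as a UTR. The largest subfamilies on V were srh, with 180 genes, str, with 157, and srw, with 95. They held 2, 2 and 3 of the kept regions, and the srx subfamily, with 79 genes, held 0 of its 14 nearest candidates.

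Leaving out every region nearest a chemoreceptor gene changed the contrast little. The share kept was then 1.65% in the left arm (24 of 1456), 4.13% in the centre (105 of 2540) and 1.92% in the right arm (25 of 1300). Chemoreceptor genes have close relatives elsewhere in the genome, and the treatment of reads with several matches is not stated in the labels, so low values at single members are uncertain.

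Other gene families were described by the same count, beside the 2.85% kept over all candidates of V and the 3.44% over the whole list. Nuclear hormone receptor genes, for transcription factors of which V holds 167, were nearest to 134 candidates, with 72 in the left arm. A further 37 lay in the right arm. None of the 134 was kept, where a floor of 3 counts is 2.24% and the exact upper limit is 2.72%. Over all candidates 1.62% were kept in the left arm and 1.88% in the right arm, both below that limit. For the 72 and the 37 alone the upper limits were 4.99% and 9.49%. The strongest of the 134 was at nhr-18, with a signal of 106. A kept summit did fall in the promoter window of nhr-68, though another TSS was nearer. Cytochrome P450 genes, for enzymes that modify small molecules, were nearest to 39 candidates, UDP-glucuronosyltransferase genes to 22 and collagen genes to 22, and none of these was kept. F-box genes had 2 kept of 70, at fbxb-72 and fbxa-139 (133). C-type lectin genes had 1 of 79, at clec-221 (125), and neuropeptide genes 1 of 27, at nlp-25 (144), in the right arm. Histone genes had 1 of 9, at his-41 (118), and ribosomal protein genes 1 of 14, at rpl-11.1 (119), in the left arm. With counts this small, no order among the families was read.

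Promoters were counted in the same way, beside the 3.0% of all protein-coding genes with a kept summit. A kept summit lay in a promoter window of 16 of 1208 genes in the left arm (1.32%, 0.759 to 2.14), 58 of 2624 in the centre (2.21%, 1.68 to 2.85) and 10 of 1162 in the right arm (0.861%, 0.413 to 1.58). The interval of the left arm overlaps those of the centre and of the right arm. Among the genes in the arms were nuo-5, for a subunit of respiratory complex I, glrx-3, a glutaredoxin gene, and cpl-1. In the centre they included hsp-90, for a chaperone, crt-1, for calreticulin, vha-13, for a proton pump subunit, and snr-4, for a core spliceosomal protein.

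The sequence itself differed between arms and centre, and its part in the result was not tested. Lower-case (repeat-masked) bases made up 40.2% of the left arm, 28.1% of the centre and 39.3% of the right arm. In the windows of candidates the mean masked share was 22.8%, 13.4% and 21.3%. In windows without any masked base, the share kept was 1.93% in the left arm (14 of 727), 4.63% in the centre (64 of 1383) and 1.66% in the right arm (11 of 661). The ratios to the centre in these windows, chosen after the data were seen, were 0.416 (0.215 to 0.75) in the left arm and 0.360 (0.171 to 0.687) in the right arm. Median GC content of the candidate windows was 45.5% in both arms and 42.6% in the centre, and that of kept windows was 48.5%, 48.5% and 47.5% from left to right. The letters ACGCAG, searched on both strands, stood in 2 of 26, 14 of 109 and 4 of 28 kept windows. They stood in 5.12%, 3.14% and 3.76% of the windows not kept and in 4.10% of all candidate windows of V, and neither motif contains the other. No source for the letters ACGCAG is recorded, and earlier results of these data were known. The counts are therefore a description only.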

How the data were processed

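ChIP-seq of GFP-tagged F52B5.7 in 2 biological replicates of 1 strain was analysed from region lists. Per the submitters' manifests, each replicate list came from that replicate and the control, the pooled list from both and the control, and the optimal list from these 3. Aligner, peak caller, versions and the threshold of the irreproducible discovery rate are absent from the labels and manifests. The signal of each region is the value the authors deposited, and depth is unknown. Columns of values without a sample numbered 0.

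Regions were annotated on ce11 with Ensembl release 115 genes and the RefSeq sequence and product names of that assembly. A replicate candidate stood for a pooled region when it held the pooled summit. A gene was nearest by TSS at any distance, and families were taken by symbol. Tools were Python 3.11.15, numpy 2.4.6, pandas 2.3.3, scipy 1.17.1 and matplotlib 3.10.9.

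Members and lists were chosen with earlier results of these data known. The rule named the genes at the 10 strongest kept regions of each arm and the centre, at every kept chemoreceptor region, at up to 2 kept regions of each other family, and at the boundaries. Other genes were named after their values were seen, as were the split by gene position, the masked windows and the product-based chemoreceptor list. Alternatives used other boundaries, single replicates, subsets of regions and other ways of assigning genes. On simulated data with 2% and 4% kept, the ratio interval held the planted ratio in 97.1% of 1000 runs. The runs drew independent counts, for which an exact interval covers by design, so they checked the calculation only. Kept regions that lie close together, as in W06H8.6, were not simulated.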

Additional observations from a re-analysis of the deposited data

How the results depend on the processing

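The share kept was lower in both arms than in the centre under each of the 12 alternatives run for it, and so were kept regions per Mb under each of the 6 run for them. With 3 stretches of equal length, kept regions per Mb relative to the centre became 0.657 in the left arm and 0.776 (0.530 to 1.13) in the right arm, and the right arm's share kept became 0.648. Without regions near tRNA, snoRNA or snRNA genes the left arm's density ratio was 0.581. The right arm's share ratio was 0.570 among the strongest 10000 candidates, 0.599 (0.317 to 1.08) with the strongest 516 regions as kept, and 0.360 in windows with no masked base, an alternative added after seeing the data. Leaving out 1 replicate gave left-arm ratios of 1.08 to 1.25 for candidates per Mb, 0.527 to 0.642 for kept per Mb and 0.423 to 0.591 for the share kept. For the right arm these were 0.887 to 1.22, 0.491 to 0.593 and 0.487 to 0.553, so candidate density there reversed, at 0.887, without replicate 2. The share of V candidates kept ran from 2.52% to 2.79%, and the chemoreceptor share from 6.93% to 9.37% of candidates and 6.02% to 6.34% of kept regions. That last share was 3.49% within 1000 bp of a TSS and 2.45% by gene body. With the strongest 2064 of each replicate in place of 1032, 80.8%, 78.0% and 71.4% of kept regions (left arm, centre, right arm) were in the strongest of both replicates. The cause of these changes was not tested. No paired analysis was possible because there is only 1 group. The lists give no read depth, and the counts of kept regions in the arms limit what can be separated there.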
